A study of Mus musculus with 9 samples.

Results

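Aminoacyl-tRNA synthetases, the enzymes that attach each amino acid to its transfer RNA, were followed by their mRNA in mouse bone marrow-derived macrophages. Members were all genes of the deposited table whose symbol is a one-letter amino acid code followed by ars, with or without a number, together with Eprs, Farsa, Farsb and Fars2. The rule found 37 of the 16200 genes in the table, and all 37 passed the filter on low counts that left 12587 genes for testing. They comprise 18 enzymes or subunits of the cytosol, 17 of the mitochondrion, and Gars and Kars, whose single genes serve both compartments. Symbols are those of the table, which mostly uses the older form (Aars for Aars1, Wars for Wars1). Wild-type macrophages were cultured for 6 days with L929 fibroblast supernatant, a source of macrophage growth factor, and polyA RNA was sequenced from 3 libraries of untreated cells, 3 of cells given IL-4 (20 ng/ml for 12 h) and 3 of cells given IL-27 (100 ng/ml for 6 h). The labels name no strain, sex or age. Whether IL-4 was also present during the IL-27 treatment is not stated, nor is the source of the 3 libraries of each group, and the p-values reflect no more than the variation among the libraries sequenced. Dose and time differ between the cytokines, and their part in a difference between IL-27 and IL-4 cannot be told apart from that of the cytokine.

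Most synthetases recognise 1 amino acid and its transfer RNAs, and Eprs serves both glutamate and proline. The enzymes join amino acid and transfer RNA at the cost of ATP, and the product feeds the ribosome. Mammalian cells carry separate nuclear genes for most of the cytosolic enzymes and for those imported into mitochondria, where a small set of respiratory chain proteins is made. Several cytosolic enzymes sit in a multisynthetase complex held together by scaffold proteins, whereas the rest are free. Many cytosolic synthetase genes are known targets of ATF4, the transcription factor of the amino acid starvation response, and Wars is also known as an interferon-induced gene.

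Most of the cytosolic enzymes rose with either cytokine, and most of the mitochondrial enzymes did not pass the test. With IL-4, 14 of 18 cytosolic members rose and none fell, 4 of 17 mitochondrial members rose and none fell, and Gars and Kars both rose (edgeR's quasi-likelihood test, Benjamini-Hochberg adjusted p under 0.05). Over all genes tested, 12.9% were called higher and 12.0% lower in that comparison. All 3 IL-4 libraries were above all 3 untreated ones in 25 of the 37 members and below them in 0, against 17.8% and 18.2% of all genes. The 25 were 14 cytosolic and 9 mitochondrial members, Gars and Kars. With IL-27, 13 cytosolic members rose and 1 fell, 1 mitochondrial member rose and 1 fell, and Gars rose, where 14.0% of all genes were called higher and 15.1% lower. All 3 IL-27 libraries were above the untreated ones in 18 members and below them in 6, against 26.2% and 26.0% of all genes. The 18 were 13 cytosolic and 4 mitochondrial members and Gars, and the 6 were 1 cytosolic and 5 mitochondrial. Median log2 fold changes with IL-4 were 0.70 for cytosolic and 0.39 for mitochondrial members, against -0.01 for all genes. With IL-27 they were 0.99 and -0.17, against 0.00 for all genes. Both comparisons use the same untreated libraries.

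**Figure D1:**
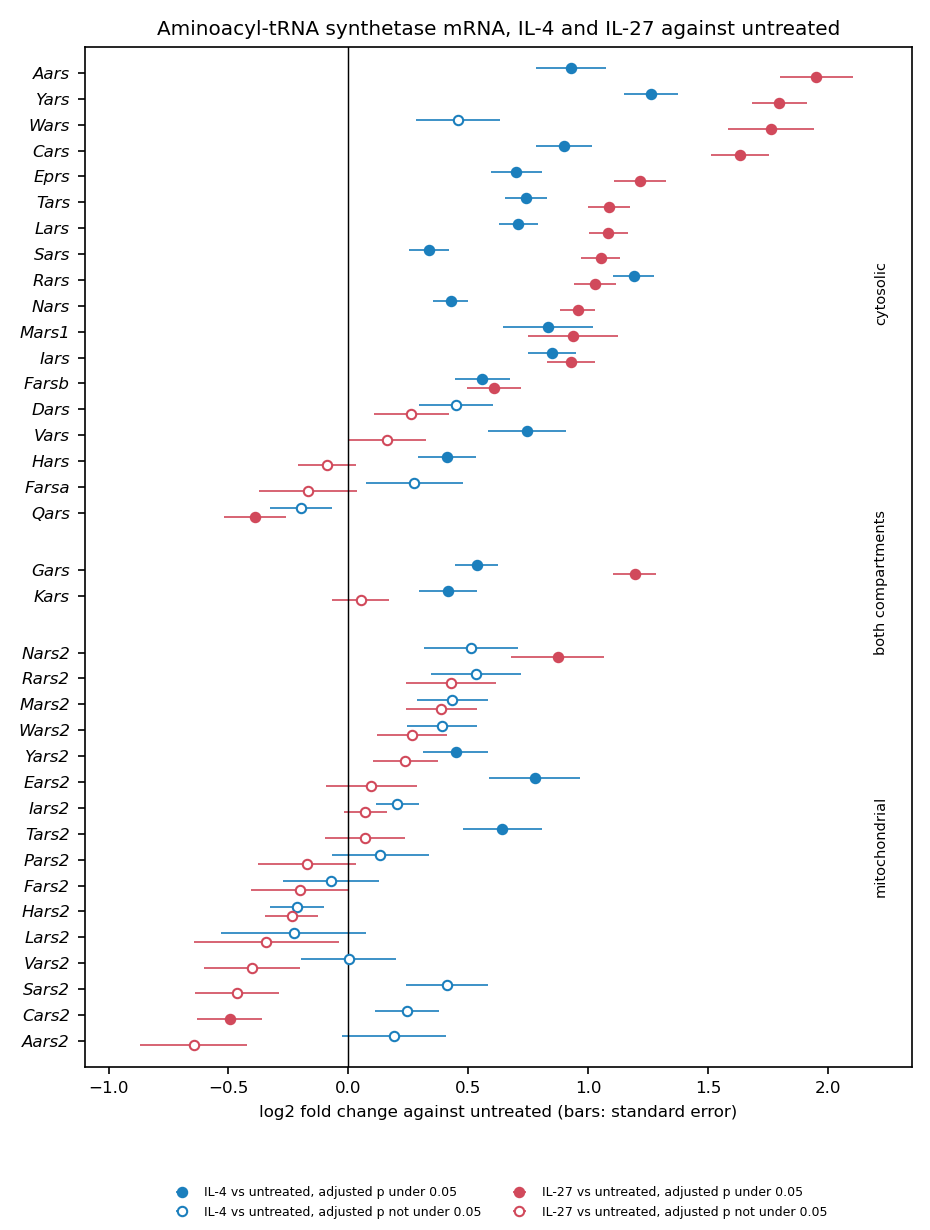
Log2 fold change against untreated for the members, 1 of them not drawn (points, with bars of 1 standard error), in blue for IL-4 and red for IL-27, grouped by compartment; filled points have an adjusted p under 0.05. Cytosolic points extend to 1.95 for Aars with IL-27, while the mitochondrial points lie between -0.65 and 0.87.

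Library totals ran from 34577188 to 37951827 counts. The coefficient of variation of a gene's level between libraries of one group, from edgeR's common estimate over genes, was 0.165. Untreated library 2 and IL-4 library 1 deviated from their group means together (Pearson's r = 0.91 across 9553 genes, which are not independent). Across the 37 members the deviation rose with transcript GC content in both (r = 0.53 in untreated 2 and 0.71 in IL-4 1), and its part in the results was not tested. All 7 macrophage markers were detected, with a summed level of 22744 to 31423 CPM (counts scaled to library size) untreated, 14446 to 18047 with IL-4 and 24053 to 26113 with IL-27. Lyz2 made up most of that sum, and 3 of the 7 fell with IL-4 and 4 with IL-27, among them Csf1r, Adgre1 and Mertk with IL-27. The summed level of 6 fibroblast markers was 680 to 772 CPM untreated, 508 to 713 with IL-4 and 1045 to 1307 with IL-27, and 4 of the 6 rose with IL-27. Summed markers of lymphocytes, granulocytes and mast cells, and dendritic cells stayed at or below 9.19 CPM in every library. In bulk RNA, fewer cells of a type and less RNA per cell cannot be told apart, and the part of the fibroblast signal in any result was not tested.

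A group of 8 cytosolic members, together with Gars, was higher with IL-4 than untreated and higher again with IL-27 than with IL-4, each past the test in all 3 comparisons. The 8 are Aars, Cars, Eprs, Lars, Nars, Sars, Tars and Yars. Aars, the alanine enzyme, had 88.9, 114 and 85.1 CPM in the untreated libraries, 222, 158 and 168 with IL-4, and 365, 377 and 372 with IL-27, so no library of one group reached the range of another. Its log2 fold change was 0.93 ± 0.15 (SE) with IL-4 (edgeR adjusted p = 0.00136) and 1.95 ± 0.15 with IL-27 (edgeR adjusted p = 1.20e-05), the largest among the members with IL-27.

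Yars, the tyrosine enzyme, measured 22.7, 26.6 and 23.0 CPM untreated, 64.9, 51.9 and 56.6 with IL-4, and 88.5, 85.1 and 77.7 with IL-27. It had the largest change with IL-4, a log2 fold change of 1.26 ± 0.11 (edgeR adjusted p = 4.30e-05), and reached 1.80 ± 0.12 with IL-27 (edgeR adjusted p = 4.24e-06). Here too the 3 groups were fully separate. Cars, the cysteine enzyme, went from 34.5, 41.9 and 33.5 CPM to 78.2, 62.9 and 63.8 with IL-4 and 111, 116 and 114 with IL-27, with log2 fold changes of 0.90 and 1.63. Eprs, a single protein that charges both glutamate and proline, had 96.5, 79.5 and 97.9 CPM untreated, 132, 151 and 162 with IL-4 and 209, 206 and 220.0 with IL-27. Its log2 fold changes were 0.70 and 1.21. All IL-4 libraries of Cars and Eprs lay between the untreated and the IL-27 libraries.

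Nars, the asparagine enzyme, was tight within groups, at 189, 197 and 189 CPM untreated, 267, 244 and 263 with IL-4, and 374, 366 and 377 with IL-27. Its log2 fold changes were 0.43 ± 0.07 and 0.96 ± 0.07. Sars, the serine enzyme, had 103, 102 and 104 CPM untreated, 141, 122 and 126 with IL-4, and 204, 219 and 216 with IL-27. Sars rose with IL-27 (log2 fold change 1.05 ± 0.08, edgeR adjusted p = 1.33e-05), and its IL-4 call of 0.34 ± 0.08 (edgeR adjusted p = 0.0138) was lost when only the untreated and IL-4 libraries were fitted (edgeR adjusted p = 0.0543).

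Lars, the leucine enzyme, also known as a leucine sensor in the mTORC1 pathway, had 48.1, 44.9 and 48.0 CPM untreated, 71.8, 80.6 and 78.3 with IL-4, and 101, 98.5 and 100.1 with IL-27. Tars, the threonine enzyme, had 42.4, 42.8 and 47.4 CPM untreated, 76.2, 72.5 and 72.6 with IL-4, and 99.4, 87.9 and 94.2 with IL-27. Gars, the glycine enzyme of both compartments, had 77.7, 65.6 and 78.5 CPM untreated, 109, 106 and 106 with IL-4, and 168, 166 and 174 with IL-27. In all 3 genes the IL-4 libraries again lay between the other groups without touching them. With IL-27 the log2 fold changes against untreated were 1.08 for Lars, 1.09 for Tars and 1.19 for Gars, and against IL-4 they were 0.38, 0.35 and 0.66. The difference of Tars between the cytokines lost its call without IL-27 library 1 (edgeR adjusted p = 0.0516).

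**Figure D2:**
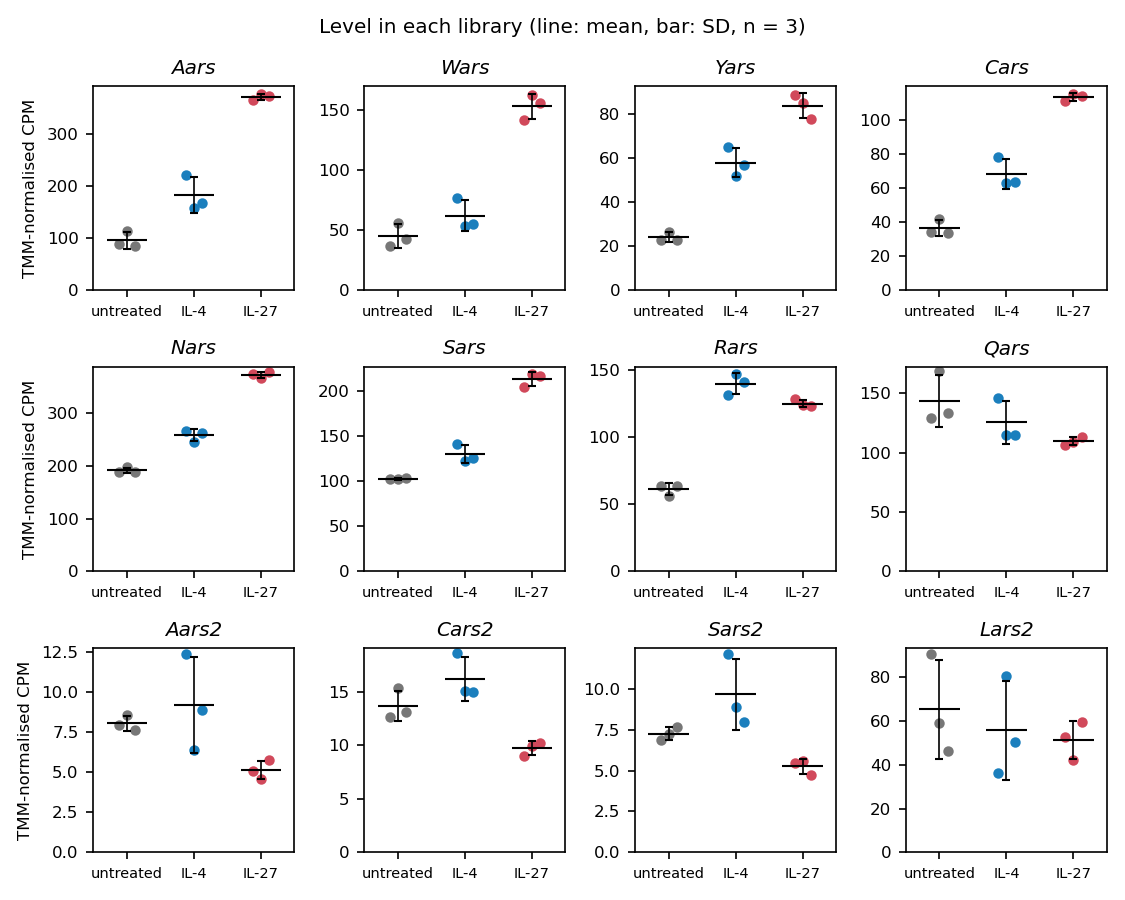
TMM-normalised CPM in each library for 12 members (points, with a line at the mean and bars of 1 SD, 3 libraries per group, axes from 0). Aars, Yars, Cars, Nars and Sars step up from untreated to IL-4 to IL-27, Rars reaches 125 to 139.8 CPM on average with either cytokine, and Cars2 and Sars2 are lowest with IL-27.

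Wars, the tryptophan enzyme, differed most between the cytokines. It had 37.1, 56.2 and 42.5 CPM untreated, 77.1, 53.8 and 55.5 with IL-4, and 142, 163 and 156 with IL-27. The untreated and IL-4 ranges overlapped, while every IL-27 library was above all 6 others. The log2 fold change was 1.76 ± 0.18 against untreated (edgeR adjusted p = 6.97e-05) and 1.31 ± 0.18 against IL-4 (edgeR adjusted p = 0.000244), the largest member difference between the cytokines. With IL-4 it was 0.46 ± 0.18 and did not pass (edgeR adjusted p = 0.0868). That value passed without untreated library 2 (0.64, edgeR adjusted p = 0.0137) and without both untreated library 2 and IL-4 library 1 (0.46, edgeR adjusted p = 1.01e-05).

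Rars, Iars, Mars1 and Farsb rose with both cytokines and did not pass the test between them. Rars, the arginine enzyme, had 64.0, 56.2 and 63.7 CPM untreated, 131, 147 and 141 with IL-4, and 128, 124 and 123 with IL-27. Its log2 fold change with IL-4, 1.19 ± 0.09, had the smallest adjusted p of any member in that comparison (edgeR adjusted p = 1.22e-05). Every IL-27 library of Rars was slightly below every IL-4 library, a difference of -0.16 ± 0.09 that did not pass (edgeR adjusted p = 0.161).

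Iars, the isoleucine enzyme, had 58.0, 66.7 and 53.7 CPM untreated, 113, 102 and 106 with IL-4, and 115, 106 and 118 with IL-27, so the treated groups overlapped. Mars1, the methionine enzyme, which also charges the initiator transfer RNA, had 34.7, 46.2 and 34.0 CPM untreated, 90.2, 54.1 and 60.4 with IL-4, and 73.3, 73.2 and 73.4 with IL-27. Its IL-4 libraries straddled the IL-27 libraries, and the difference between the cytokines, 0.10 ± 0.19, became 0.35 without untreated library 2 and IL-4 library 1 (edgeR adjusted p = 3.36e-05) and -0.039 without IL-4 library 2 (edgeR adjusted p = 0.884). Farsb, the beta subunit of the phenylalanine enzyme, rose by 0.56 with IL-4 and 0.61 with IL-27 on the log2 scale, whereas Farsa, the alpha subunit, passed in no comparison (0.28 and -0.17).

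Vars, Hars and Kars, the valine, histidine and lysine enzymes, rose with IL-4 by 0.75, 0.41 and 0.42 on the log2 scale and were lower with IL-27 than with IL-4 by the test (-0.58, -0.50 and -0.36). Against untreated their IL-27 values were 0.16, -0.09 and 0.05, none past the test. The mean level of Vars was 69.0 ± 10.5 CPM untreated, 116 ± 26.8 with IL-4 and 77.2 ± 2.81 with IL-27 (SD, n = 3). The IL-4 call of Kars was lost in 7 of the 9 fits that left out 1 library, all but those without untreated library 2 or IL-4 library 3, with edgeR adjusted p of 0.0501 to 0.110 where lost. That of Hars was lost without untreated library 1 or 3, IL-4 library 1, or IL-27 library 1 or 3 (edgeR adjusted p of 0.0540 to 0.117). Between the cytokines, Vars lost its call without IL-27 library 2 or 3 (edgeR adjusted p of 0.0507 to 0.0609), and Kars without IL-4 library 1 or 2 or any IL-27 library (edgeR adjusted p of 0.0587 to 0.114).

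Qars, the glutamine enzyme, was the only cytosolic member that fell against untreated. It had 129, 169 and 133 CPM untreated, 146, 115 and 115 with IL-4, and 106, 109 and 114 with IL-27. The IL-27 libraries were all below the untreated ones, at a log2 fold change of -0.39 ± 0.13 (edgeR adjusted p = 0.0472). The call was lost without untreated library 2 or 3, IL-4 library 2 or 3, or any IL-27 library (edgeR adjusted p of 0.0526 to 0.140). Dars, the aspartate enzyme, passed in no comparison (0.45 with IL-4 and 0.26 with IL-27). A further threonine enzyme gene, Tarsl2, lies outside the symbol rule, had 4.40 to 9.26 CPM and passed in no comparison.

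Within the cytosolic and shared enzymes, the 8 members of the multisynthetase complex (Dars, Eprs, Iars, Kars, Lars, Mars1, Qars and Rars) and the 12 free ones were counted separately. With IL-4, 6 of 8 and 10 of 12 rose. With IL-27, 5 of 8 rose and 1 fell, while 9 of 12 rose. Between IL-27 and IL-4, 2 of the 8 complex members were higher and 1 lower, against 8 higher and 2 lower of the 12 free enzymes, with median log2 differences of -0.040 and 0.53. Of all genes, 18.8% were called higher and 21.0% lower between IL-27 and IL-4. The complex counts in that comparison, and the free enzymes called lower, lie near those shares. With IL-4, 12.9% of all genes were called higher and 12.0% lower, and with IL-27 14.0% and 15.1%. The difference between the complex and the free enzymes was not tested. Of the 3 scaffold proteins, Eef1e1 rose with IL-4 (0.84) and IL-27 (0.73), Aimp2 rose with IL-4 (1.02) and was lower with IL-27 than with IL-4 (-0.69), and Aimp1 passed in no comparison. By catalytic fold, the 10 class I and 10 class II members each had 8 that rose with IL-4. With IL-27, 8 class I members rose and 1 fell while 6 class II members rose. Eprs, which charges both glutamate and proline, was counted in class I only.

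Promoter sequence was looked at because several of these genes moved together. RefSeq promoters (build GRCm38.p6, older than the GRCm39 of the deposited tables), from 250 bases before to 50 after each start, were found for 27 of the 37 members. Those not matched include Cars, Hars, Hars2, Lars, Nars, Pars2, Rars, Vars and Wars. The letters TGATGNAA, which ATF4-type amino acid response elements carry, were searched on both strands and occur in 3.97% of all 32851 promoters of this length. They were found in 5 of the 13 matched cytosolic or shared members and in 0 of the 14 matched mitochondrial members. The mitochondrial count lies near the share of all promoters, and a difference between compartments was not tested. The cytosolic members Cars, Hars, Lars, Nars, Rars, Vars and Wars are in neither count. The windows below are shown because they hold every match among the members; capitals mark TGATGNAA or its reverse complement, and each is written 5′ to 3′ along the gene's strand.
Aars, chr8:111033708-111033759, plus strand, match starting 112 bases before the start: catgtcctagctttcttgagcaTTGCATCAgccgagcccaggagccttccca
Aars, chr8:111033840-111033869, plus strand, match 9 bases past the start: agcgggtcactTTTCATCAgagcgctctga
Gars, chr6:55037949-55038000, plus strand, match starting 30 bases before the start: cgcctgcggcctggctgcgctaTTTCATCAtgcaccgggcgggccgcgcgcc
Iars, chr13:49682126-49682155, plus strand, match 7 bases past the start: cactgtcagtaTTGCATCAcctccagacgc
Tars, chr15:11399659-11399695, minus strand, match starting 15 bases before the start: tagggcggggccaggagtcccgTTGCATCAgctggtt
Yars, chr4:129189895-129189924, plus strand, match 3 bases past the start: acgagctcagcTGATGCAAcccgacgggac

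All 5 genes with a match rose with both cytokines, with IL-27 log2 fold changes of 0.93 to 1.95. Of the 8 matched cytosolic or shared members without it, 5 rose with IL-4 and 4 with IL-27, over a range of -0.39 to 1.21 with IL-27. The STAT letters TTCNNNGAA (8.30% of all promoters) were found in Aars, Kars and Nars2, and the interferon-stimulated response element letters, GAAA then any 2 bases then GAAA (3.44%), in Qars. The E-box CACGTG (7.15%) was found in Aars, Ears2, Farsb, Iars and Tars. All 4 cytosolic members with the E-box also rose with both cytokines, by 0.61 to 1.95 with IL-27. Of the 9 matched cytosolic or shared members without it, 6 rose with IL-4 and 5 with IL-27. Aars, Iars and Tars hold both the E-box and the ATF4-type letters, and the part of either was not tested. These are letter matches in short windows, and binding was not measured.

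Among the 4 mitochondrial enzymes that rose with IL-4 were Ears2, Tars2 and Yars2. Ears2, for glutamate, had the largest mitochondrial change with IL-4. It measured 4.39, 3.55 and 3.77 CPM untreated, 7.83, 6.74 and 5.52 with IL-4, and 3.49, 4.63 and 4.40 with IL-27. Every IL-4 library was above all 6 others, at a log2 fold change of 0.78 ± 0.19 (edgeR adjusted p = 0.0135). The calls of Tars2 (0.64) and Yars2 (0.45) were fragile. Tars2 was lost without untreated library 1 or 3 (edgeR adjusted p of 0.0662 to 0.0697), and Yars2 without any 1 of the 8 libraries other than IL-4 library 1 (edgeR adjusted p of 0.0521 to 0.124). The mitochondrial count of 4 became 2 without untreated library 1 or without untreated library 3, 7 without IL-4 library 1, and 8 without both untreated library 2 and IL-4 library 1, a fit in which 24.0% of all genes were called higher.

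With IL-27 against untreated, Nars2 was the mitochondrial member that rose and Cars2 the one that fell. Nars2, for asparagine, had 5.59, 5.21 and 5.36 CPM untreated, 5.46, 9.69 and 7.86 with IL-4, and 9.05, 10.3 and 10.2 with IL-27. All IL-27 libraries were above the untreated ones (0.87 ± 0.19, edgeR adjusted p = 0.00769), and 1 IL-4 library reached into the IL-27 range. Cars2, for cysteine, had 12.7, 15.3 and 13.1 CPM untreated, 18.6, 15.1 and 15.0 with IL-4, and 8.97, 9.99 and 10.2 with IL-27, a log2 fold change of -0.49 ± 0.13 (edgeR adjusted p = 0.0201). The call was lost without untreated library 2 (edgeR adjusted p = 0.0551), IL-27 library 1 (0.0824) or IL-27 library 2 (0.0558), which made the count of mitochondrial members that fell 0. That count was 4 without IL-4 library 1, 2 without IL-4 library 2, and 4 without untreated library 2 and IL-4 library 1 together, where 25.3% of all genes were called lower.

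Between IL-27 and IL-4, the cytosolic members that passed were mostly higher with IL-27 and the mitochondrial ones all lower. Of the cytosolic members 9 were higher and 2 lower with IL-27, of the mitochondrial members 0 were higher and 6 lower, Gars was higher and Kars lower, where 18.8% of all genes were called higher and 21.0% lower. The 2 groups did not overlap in 10 members that were higher and 13 that were lower with IL-27, against 28.0% and 28.7% of all genes. The 6 mitochondrial members include Aars2, Cars2, Ears2, Sars2 and Tars2, with log2 differences from -0.57 to -0.87. Sars2, for serine, had 12.1, 8.86 and 7.99 CPM with IL-4 and 5.45, 5.60 and 4.73 with IL-27, against 6.84, 7.26 and 7.67 untreated. It gave the largest of the 6 (-0.87 ± 0.17, edgeR adjusted p = 0.00283). Aars2 lost its call without IL-27 library 2 (edgeR adjusted p = 0.0543), Ears2 without IL-27 library 1 (0.0646), and Tars2 without IL-4 library 1 or IL-27 library 2 or 3 (0.0526 to 0.0742). The count of 2 lower cytosolic members was 1 without IL-27 library 2 or 3, 3 without untreated library 2, and 5 without untreated library 2 and IL-4 library 1 together (30.3% of all genes lower), and the count of 0 higher mitochondrial members was 1 without IL-4 library 2.

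The other 9 mitochondrial members, Fars2, Hars2, Iars2, Lars2, Mars2, Pars2, Rars2, Vars2 and Wars2, passed in no comparison. Lars2, for leucine, had 90.5, 58.9 and 46.5 CPM untreated, 36.4, 80.4 and 50.3 with IL-4, and 52.6, 42.3 and 59.6 with IL-27. Its spread within a group was wider than any difference between groups, at -0.23 ± 0.30 with IL-4 and -0.34 ± 0.30 with IL-27, and the sign with IL-4 turned when untreated library 1 was left out (0.081).

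Levels between genes were compared per length, as FPKM (fragments per kilobase of gene length, scaled to the library's depth). The untreated group means of the cytosolic members ran from 6.46 for Farsb to 73.3 for Nars, with a median of 15.3, and those of the mitochondrial members from 0.347 for Nars2 to 15.9 for Lars2, with a median of 2.92. The cytosolic median was 25.0 with IL-4 and 33.0 with IL-27, whereas the mitochondrial median was 4.30 and 2.28. Summed over members, cytosolic FPKM was 379 to 387 untreated, 564 to 584 with IL-4 and 685 to 700 with IL-27 in the 3 libraries of each group. The mitochondrial FPKM sum was 66.9 to 80.0, 75.7 to 89.5 and 61.6 to 67.0. Each treated group overlapped the untreated one in the mitochondrial FPKM sum, and all 3 groups were apart in the cytosolic FPKM sum. Lars2, the highest mitochondrial member, ran from 11.7 to 22.9 FPKM untreated and 8.47 to 20.7 with IL-4. Its spread weighs on the mitochondrial sum. Summed as TMM-normalised CPM, the mitochondrial members had 309, 299 and 268 untreated, 324, 339 and 316 with IL-4, and 278, 269 and 280 with IL-27. In that sum every IL-4 library was above every untreated one, while IL-27 overlapped untreated. Taken singly in CPM, all IL-4 libraries were above the untreated ones in 9 of the 17 mitochondrial members and below them in 0. FPKM depends on the gene length used, which was 15488 bases for Nars2 and 2603 for Nars.

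**Figure D3:**
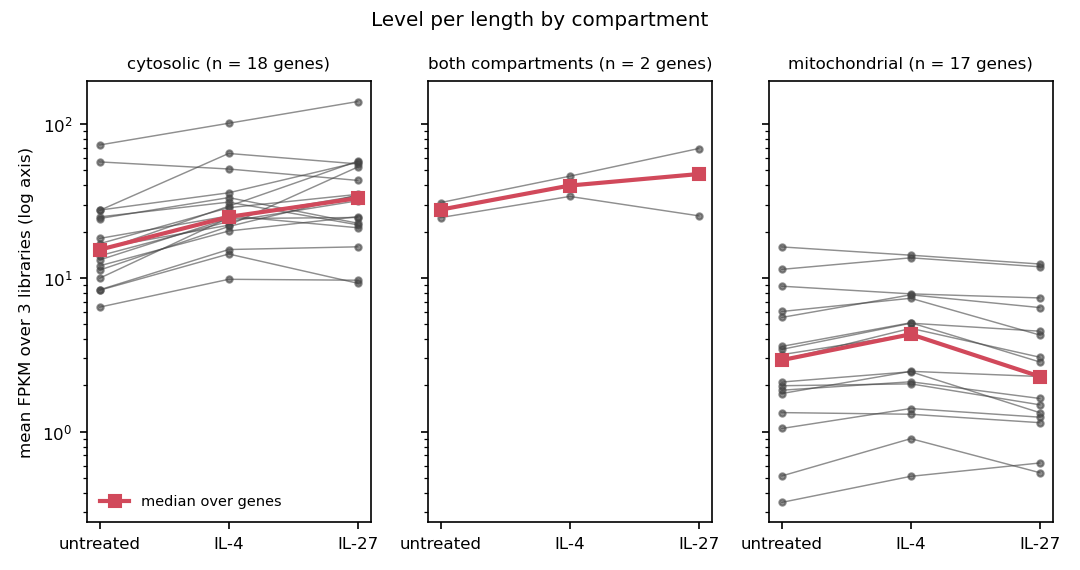
Mean FPKM over 3 libraries (log axis) of each member in the 3 groups, by compartment, with the median over genes in red. The cytosolic median climbs from 15.3 to 25.0 to 33.0, and the mitochondrial median goes from 2.92 to 4.30 to 2.28.

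For 17 amino acids the cytosolic and mitochondrial enzymes could be set against each other within a library, which divides out depth and scaling. Eprs stood for both glutamate and proline, and the mean of Farsa and Farsb for phenylalanine. The median over pairs of the log2 ratio of cytosolic to mitochondrial FPKM was 2.69, 2.36 and 2.71 in the untreated libraries, 2.85, 2.88 and 2.74 with IL-4, and 3.54, 3.47 and 3.49 with IL-27. The 3 IL-27 libraries were above all others, and the IL-4 libraries only just above the untreated ones. The difference from untreated had a median of 0.55 over pairs with IL-4 (-0.07 to 0.96) and 1.00 with IL-27 (0.09 to 2.61). With IL-27 the ratio was higher in all 17 pairs, and in 15 of them the 3 libraries did not overlap the untreated ones. With IL-4 it was higher in 13 pairs, 8 of them without overlap. Pairs are described without a test, and the 2 that use Eprs share it.

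The alanine pair had the largest difference with IL-27, while with IL-4 the leucine pair (0.96) and the tyrosine pair (0.81) had larger ones than the alanine pair (0.78). The leucine pair overlapped between untreated (-0.84, -0.32 and 0.12) and IL-4 (1.05, 0.07 and 0.71). The log2 ratio of Aars to Aars2 was 2.75, 3.00 and 2.73 untreated, 3.43, 3.89 and 3.50 with IL-4, and 5.42, 5.62 and 5.28 with IL-27. The cysteine pair was next with IL-27, at 0.93, 0.93 and 0.83 untreated, 1.55, 1.54 and 1.57 with IL-4, and 3.11, 3.01 and 2.96 with IL-27. In both pairs the 3 groups were apart. Aars2 itself had 7.95, 8.55 and 7.67 CPM untreated, 12.4, 6.39 and 8.88 with IL-4, and 5.10, 4.61 and 5.74 with IL-27, below the untreated range but short of the test (-0.65 ± 0.22, edgeR adjusted p = 0.0522). The asparagine pair stood at the other end, with 7.65, 7.82 and 7.71 untreated, 8.18, 7.23 and 7.64 with IL-4, and 7.94, 7.72 and 7.78 with IL-27. Its groups overlapped, and both genes of the pair rose with IL-27. The histidine pair was the 1 pair of 17 whose ratio was lower in every IL-27 library than in every IL-4 library (mean difference -0.47).

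**Figure D4:**
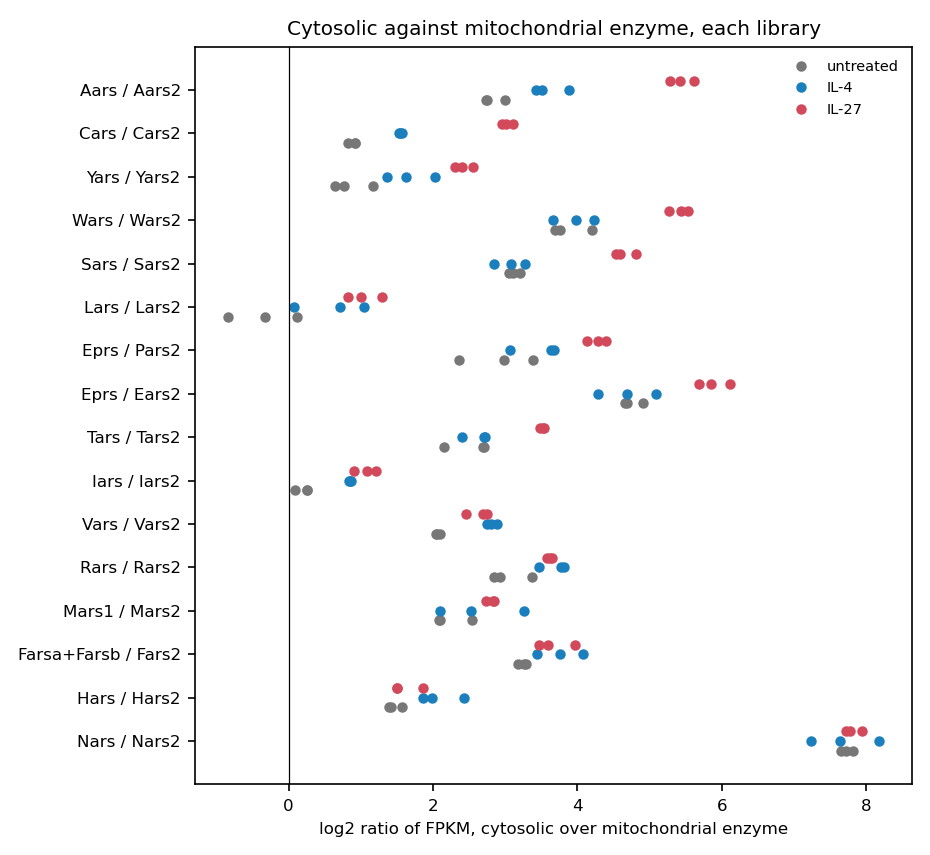
Log2 ratio of the FPKM of the cytosolic to that of the mitochondrial enzyme in each library (points) for the 17 pairs, 1 of them not drawn, in grey for untreated, blue for IL-4 and red for IL-27. The IL-27 values lie above the untreated values without overlap in 15 of the 17 pairs, the undrawn one included, and the shift with IL-27 is largest for Aars and Aars2.

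Genes around the synthetases were counted by list, beside the shares of all genes called higher or lower given above for each comparison. Of 16 genes of the amino acid starvation response, 9 rose with IL-4 (median log2 fold change 0.95) and all 16 with IL-27 (1.98), and 14 were higher and 2 lower with IL-27 than with IL-4. Atf4, its transcription factor, had mean levels of 130 CPM untreated, 215 with IL-4 and 477 with IL-27. Asns, asparagine synthetase, rose by 1.98 with IL-4 and 3.40 with IL-27 on the log2 scale, and Slc7a1, a transporter of basic amino acids, by 1.83 and 3.17. Of 9 growth and Myc genes, 6 rose with IL-4 and 4 with IL-27. Myc rose by 2.05 with IL-4, from 17.7 to 73.1 CPM, and stood at 20.8 with IL-27. Of 7 tested immediate early genes, 3 rose with IL-4 and 2 fell with IL-27.

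Further lists covered the steps beside and after charging, and several of their counts lie near the shares of all genes. Of 10 genes for other charging and proofreading steps, 3 rose with IL-4 (Aarsd1 0.64, Qrsl1 0.66 and Gatc 0.42), none passed with IL-27, and 4 were lower with IL-27 than with IL-4. Of 8 genes of transfer RNA maturation and export, 1 fell with IL-4 (Clp1, -0.38), and with IL-27 Xpot, the nuclear exporter of transfer RNA, rose (1.02 ± 0.10, edgeR adjusted p = 5.36e-05), as did Trnt1 (0.76), while Tsen34 fell (-0.46). Of 9 cytosolic elongation and termination genes, 4 rose with IL-4, led by Eif5a (1.15), and 2 with IL-27 (Etf1 0.65 and Gspt1 0.47). Of 9 mitochondrial translation factors, 2 rose with IL-4 (Gfm1 0.63 and Tsfm 0.40) and 1 with IL-27 (Gfm1 0.36).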

How the data were processed

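The deposited table holds whole-number counts per gene for 9 libraries, and a second deposited table holds the same genes as FPKM. Per the submitters' processing notes, fastp, HISAT2, HTSeq and the build GRCm39 were used. Their versions, the annotation, the strand setting and the handling of shared reads are not given in the sources used. Dividing counts by FPKM gave whole gene lengths for 100% of the 16200 genes, within 0.001 bases.

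All 9 libraries entered 1 edgeR 4.0.16 quasi-likelihood fit (R 4.3.3) with a group term, TMM factors (0.918 to 1.06) and filterByExpr at a minimum count of 10. Calls used p-values adjusted by Benjamini-Hochberg over all 12587 genes, with a threshold of 0.05. Standard errors were derived from F and are approximate. Levels are TMM-normalised CPM. The procedure was tested on simulated data with changes placed in the IL-27 libraries only. The simulated libraries were independent, so neither the IL-4 calls nor a deviation shared by libraries was examined. DESeq2 1.42.0, limma 3.58.1 and other scalings, filters and left-out libraries served as alternatives. GC content came from the longest transcript in an older annotation, with a value for all 37 members.

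Members and gene lists were chosen with earlier results of these data known. Values in every library are given for members called in a comparison, in the order of adjusted p and up to 10 per comparison, and for Wars, Mars1, Aars, Gars, Sars and Lars2. From each list up to 3 members with the smallest adjusted p could be named. Some genes and a gene list that these rules cover are not reported here. Library values of Qars, Nars2, Aars2 and Ears2 were added after they were seen.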

Additional observations from a re-analysis of the deposited data

How the results depend on the processing

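Of the 56 member results called, 43 kept their direction and call under all 18 alternatives (15 of 20 with IL-4, 15 of 17 with IL-27 and 13 of 19 between the cytokines), and the cause of each loss was not tested. With only the compared groups fitted, 12 cytosolic and 2 mitochondrial members were higher with IL-4, where 1154 of all genes were called higher and 984 lower. Hars, Kars, Sars, Tars2 and Yars2 lost their IL-4 call in that fit (edgeR adjusted p of 0.0522 to 0.0923). The count of mitochondrial members higher with IL-4, 4 as reported, was 8 without untreated library 2 and IL-4 library 1. Leaving those libraries out also gave 1 cytosolic member lower with IL-4, 5 lower with IL-27 than with IL-4, and 4 mitochondrial members lower with IL-27 against untreated. That last count, 1 as reported, was 2 with DESeq2 size factors or a filter on CPM over 1, and 3 with upper-quartile factors, the DESeq2 Wald test, only the compared groups, or limma on log2(FPKM + 1). Limma gave 4 cytosolic members lower with IL-27 than with IL-4.

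With 1 library left out, counts ran from 2 to 7 for mitochondrial members higher with IL-4. For IL-27 against untreated they ran from 0 to 1 for cytosolic and 0 to 4 for mitochondrial members lower. For IL-27 against IL-4 they ran from 1 to 3 for cytosolic members lower and 0 to 1 for mitochondrial members higher. Signs turned for Lars2 with IL-4 (-0.59 to 0.081, above 0 without untreated library 1 or IL-4 library 1), for Lars2 between the cytokines (-0.35 to 0.24, above 0 without IL-4 library 2 or IL-27 library 2), and for Mars1 between the cytokines (-0.039 without IL-4 library 2, up to 0.36 without IL-4 library 1), none of them called. The median pair difference ran from 0.52 to 0.59 with IL-4 and from 0.89 to 1.10 with IL-27.

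Same-numbered libraries of different groups deviated with r from -0.82 to 0.69 over 9 pairs, and other-numbered ones from -0.82 to 0.91 over 18 pairs. The joint deviation of untreated library 2 and IL-4 library 1 enters many of these values. They therefore cannot decide whether the numbers pair the libraries. A fit with the replicate block gave 12 cytosolic and 2 mitochondrial members higher with IL-4, 13 and 1 higher and 0 and 0 lower with IL-27, and 9 cytosolic members higher and 6 mitochondrial lower between the cytokines. Over all genes it called 1207 higher and 1101 lower with IL-4, and 1399 and 1500 with IL-27, against 1630 and 1515, and 1766 and 1904. Members under 11 CPM in every library, such as Ears2 and Nars2, have the fewest counts behind their values.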
